A study of Fukomys damarensis and Heterocephalus glaber and Cavia porcellus with 28 samples.

Results

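The hearts of naked mole-rats and mice were compared gene by gene, using the 6 of 28 libraries of the series that come from heart of these species. The naked mole-rats (Heterocephalus glaber) were 3 males aged 13, 15 and 17 months, and the mice (Mus musculus) were 3 males, all aged 2 months. The labels give no strain, colony, breeding status or treatment for either species, so species, age and housing cannot be told apart. Each library came from total RNA of frozen tissue after removal of ribosomal RNA. Values from 5 male Damaraland mole-rats aged 36 or 48 months and 3 male guinea pigs aged 2.3 months, whose heart libraries stand in the same table, are given beside some genes. Liver values come from 4 male naked mole-rats aged 13 to 17 months and 2 male mice aged 2 months. Of the 3 naked mole-rats that gave a heart, 2 also gave a liver, as did 1 of the 3 mice. Of 13928 genes in the heart table, the 10659 whose mean over the 6 libraries lay at least 1 above the value of a gene with 0 reads were kept.

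A heart cell shortens when myosin of the thick filament pulls on actin of the thin filament, under the control of troponin and of calcium released from the sarcoplasmic reticulum. Mammals have a fast cardiac myosin, alpha (Myh6), and a slow one, beta (Myh7). The adult mouse ventricle, which beats very fast, is known for alpha myosin, while larger and slower hearts rely on beta myosin. The contraction is paid for mostly by mitochondria that burn fatty acids, with glucose, lactate and glycogen as further fuels, and creatine kinase buffers the energy supply. Naked mole-rats live underground in crowded burrows, are known for long life, a low body temperature and tolerance of low oxygen, and have a slow heart for their size.

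The values are on a log2-like scale on which a gene with 0 reads has 5.3645, called the floor here. The scale is compressed for rare genes: doubling from 10 reads moved a value by 0.282 and doubling from 1000 reads moved it by 0.946. Scaled reads, used below to state ratios, are the reads recovered from each value after division by the library's size factor. No correction for gene length is contained in either quantity, so levels are compared between species within a gene and not between genes. Recovered reads totalled 4089633 to 22526618 per library in naked mole-rat and 23485705 to 26985779 in mouse, and naked mole-rat replicate 3 had the lowest total. Myh6 ranked 2 to 18, Actc1 12 to 17 and Tnnt2 14 to 25 among all genes over the 6 libraries, so each library carried heart muscle genes at high levels. The Spearman correlation across genes was 0.988 to 0.989 between mouse libraries and 0.618 to 0.645 between the species. Naked mole-rat replicate 3 stood apart, at 0.918 and 0.916 with replicates 1 and 2, which correlated with each other at 0.984.

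Differences were large and ran both ways. A gene was called when its difference, naked mole-rat minus mouse, was at least 1 in size with an adjusted p under 0.05 (limma across all genes kept). By this rule 4186 of 10659 genes (39.3%) were called, 1997 higher in naked mole-rat (18.7%) and 2189 lower (20.5%), and 1285 of the called genes differed by at least 2. The libraries of the species did not overlap for 7785 genes (73%), and 7341 genes had an unadjusted p under 0.05. Without naked mole-rat replicate 3 the count was 4211, 1951 higher and 2260 lower, and 3791 of these genes were also called with it. With voom, which models the recovered reads, 5354 genes were called, 2618 higher and 2736 lower. That fit took its library sizes from the size factors, and the median of all genes was 0.001. Voom was also run with read totals that leave out mitochondrially encoded genes as library sizes. The median was then 0.297, and the split was 3292 higher and 2172 lower. These settings differ in the kind of library size as well as in those genes, and the part of each was not tested. The shares higher among called genes were 47.7% as first given, 48.9% with voom on size factors and 60.2% with voom on those totals. Because the hearts of these species differ at so many genes, counts within a gene list are read below against 18.7% and 20.5%.

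**Figure D1:**
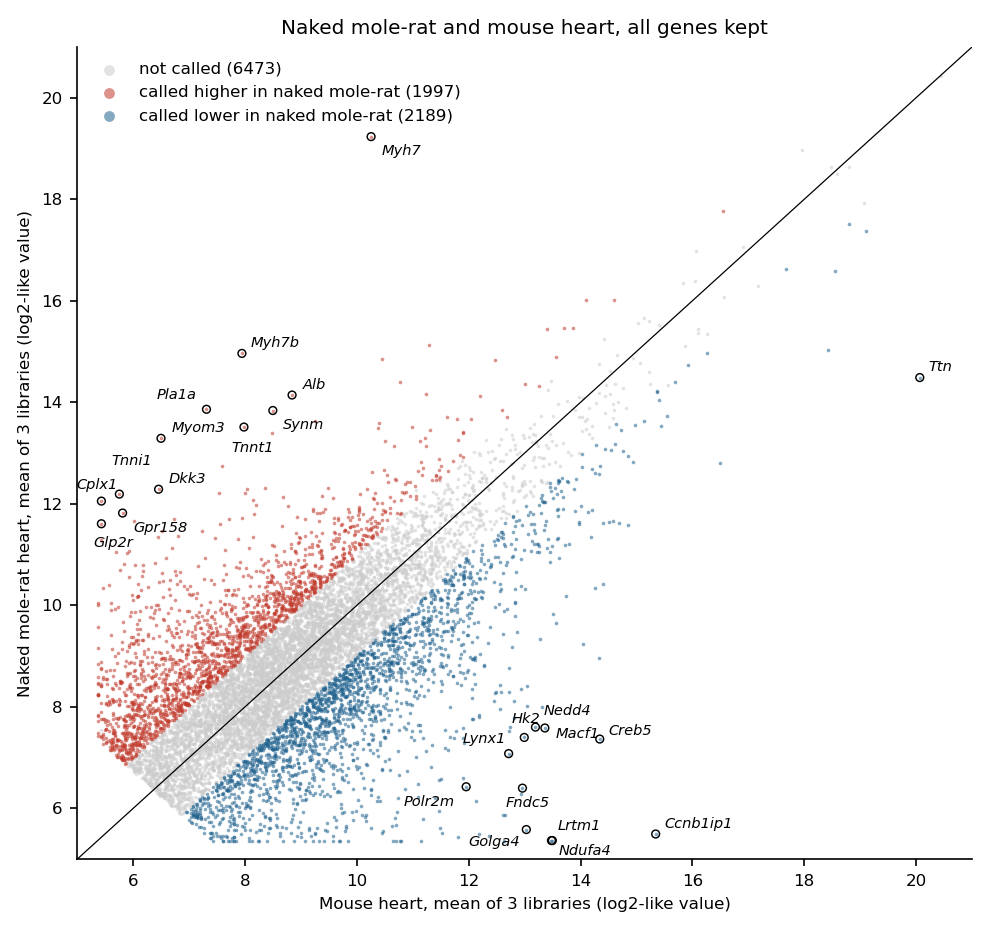
Each point is 1 of the 10659 genes kept, with its mean log2-like value over 3 mouse libraries on the x axis and over 3 naked mole-rat libraries on the y axis. The diagonal marks equal values, and named genes are circled: Myh7 lies far above it at 19.23 against 10.25, and Ttn far below it at 14.49 against 20.07.

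The myosin genes held the largest difference among genes detected in both species. Myh7, the slow beta myosin heavy chain, stood at 18.91, 19.52 and 19.27 in the naked mole-rat libraries and at 9.73, 10.4 and 10.63 in the mouse libraries. The naked mole-rat values lay far above every mouse value, by 8.98 ± 0.45 (SE, adjusted p = 4.1e-11), which is a ratio of 530 in scaled reads. Myh7b, a slow myosin encoded by a separate gene, stood at 14.96, 15.24 and 14.69 against 7.37, 7.81 and 8.66, a difference of 7.02 ± 0.64 (adjusted p = 5.73e-08). Neither gene overlapped between the species. In Damaraland mole-rat and guinea pig hearts Myh7 averaged 18.07 and 18.43, so among these 4 species the mouse was the one at a low level.

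The fast alpha myosin Myh6 was lower in naked mole-rat, but its libraries were scattered. Its values were 18.98, 16.27 and 16.9 in naked mole-rat and 19.01, 19.11 and 19.2 in mouse. Naked mole-rat replicate 1 lay just under the lowest mouse library, while the other two were clearly below them. The difference was -1.72 ± 0.46 (adjusted p = 0.00355), and it lay between -2.52 and -1.17 when 1 library was left out at a time. Under quantile normalisation Myh6 was no longer called. Myh6 and Myh7 are near-identical in sequence over long stretches, so reads may be shared between their rows, which was not tested. Scaled reads at Myh6 were 79100 to 518100 in naked mole-rat and 527200 to 602500 in mouse. At Myh7 they were 493400 to 751600 in naked mole-rat and 769.1 to 1503 in mouse. 

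Troponin, the calcium switch of the thin filament, differed mainly in its slow skeletal isoforms. Tnni1, the slow skeletal troponin I that the heart uses before birth, had values of 12.06, 12.18 and 12.34 in naked mole-rat and 5.73, 5.76 and 5.77 in mouse, where the mean was 2.99 scaled reads. The species were separated by 6.44 ± 0.55 (adjusted p = 2.81e-08). Tnnt1, the slow skeletal troponin T, stood at 14.02, 13.8 and 12.72 against 8.02, 8.05 and 7.87, which is 5.53 ± 0.36 higher (adjusted p = 1.2e-09). All naked mole-rat libraries were above all mouse libraries for both genes. The adult cardiac troponin I, Tnni3, was at 14.59, 14.51 and 14.12 in naked mole-rat and at 15.65, 15.75 and 15.68 in mouse. This difference of -1.29 ± 0.20 passed the test (adjusted p = 2.83e-05) but not under quantile normalisation or with voom and totals without mitochondrially encoded genes. Cardiac troponin T (Tnnt2) and troponin C (Tnnc1) differed by 0.52 ± 0.39 and -0.07 ± 0.26 and were not called.

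The list of thick and thin filament genes had 23 tested members, of which 7 were called higher and 6 lower, with a median difference of 0.18 against -0.003 over all genes. Beside those named above, Myl2, the regulatory light chain of the ventricle, was higher by 1.21 ± 0.32 (adjusted p = 0.00353). Myl1, the light chain of fast skeletal muscle, was lower by a difference of -2.73 ± 0.20 (adjusted p = 5.81e-09), and Lmod3, which helps build thin filaments, by one of -2.67 ± 0.19 (adjusted p = 4e-09). The essential light chain Myl3 (-0.48 ± 0.23) and skeletal actin Acta1 (0.31 ± 0.61) were not called. Cardiac actin Actc1 had a difference of -1.03 ± 0.27 that was lost on centring, on quantile normalisation, with voom and totals without mitochondrially encoded genes, and without naked mole-rat replicate 1 or mouse replicate 2. Actc1 and Acta1 encode nearly the same protein and may share reads, which was not tested. The count of 6 lower genes went down to 2 under the alternative scalings, while the count of higher genes was 7 or 8. Myl7 was not analysed here.

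Titin and the proteins of the Z-disc and M-band, which hold the filaments in register, had 10 higher and 5 lower members of 26. Ttn, the giant spring of the sarcomere, stood at 14.46, 14.48 and 14.52 in naked mole-rat and at 19.87, 20.06 and 20.27 in mouse. The naked mole-rat libraries were nearly equal and all far below the mouse libraries, by a difference of -5.58 ± 0.28 (adjusted p = 4.96e-11), and the mouse had 48.2 times the scaled reads. In Damaraland mole-rat and guinea pig Ttn averaged 16.97 and 16.43. In liver the Ttn difference was -4.51 (adjusted p = 3.4e-09). A titin transcript is very long, and how its transcripts in each species were assigned to this row is not given in the sources used here.

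Myom3, an M-band protein found in intermediate-speed skeletal fibres, had values of 13.41, 12.99 and 13.47 in naked mole-rat and 6.56, 6.41 and 6.52 in mouse. The gap was 6.79 ± 0.21 (adjusted p = 1.9e-13), and the guinea pig mean of 13.05 lay beside that of the naked mole-rat. Synm, which encodes the intermediate filament protein synemin, was at 14.13, 13.87 and 13.51 against 8.4, 8.51 and 8.57, a difference of 5.34 ± 0.22 (adjusted p = 4.57e-12). Neither gene overlapped between species. Cavin4, a protein of muscle caveolae, was near the floor in naked mole-rat at 6.1, 6.43 and 6.11 and stood at 10.6, 10.74 and 10.89 in mouse. It was also near the floor in guinea pig, at a mean of 5.37, but at 9.90 in Damaraland mole-rat.

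**Figure D2:**
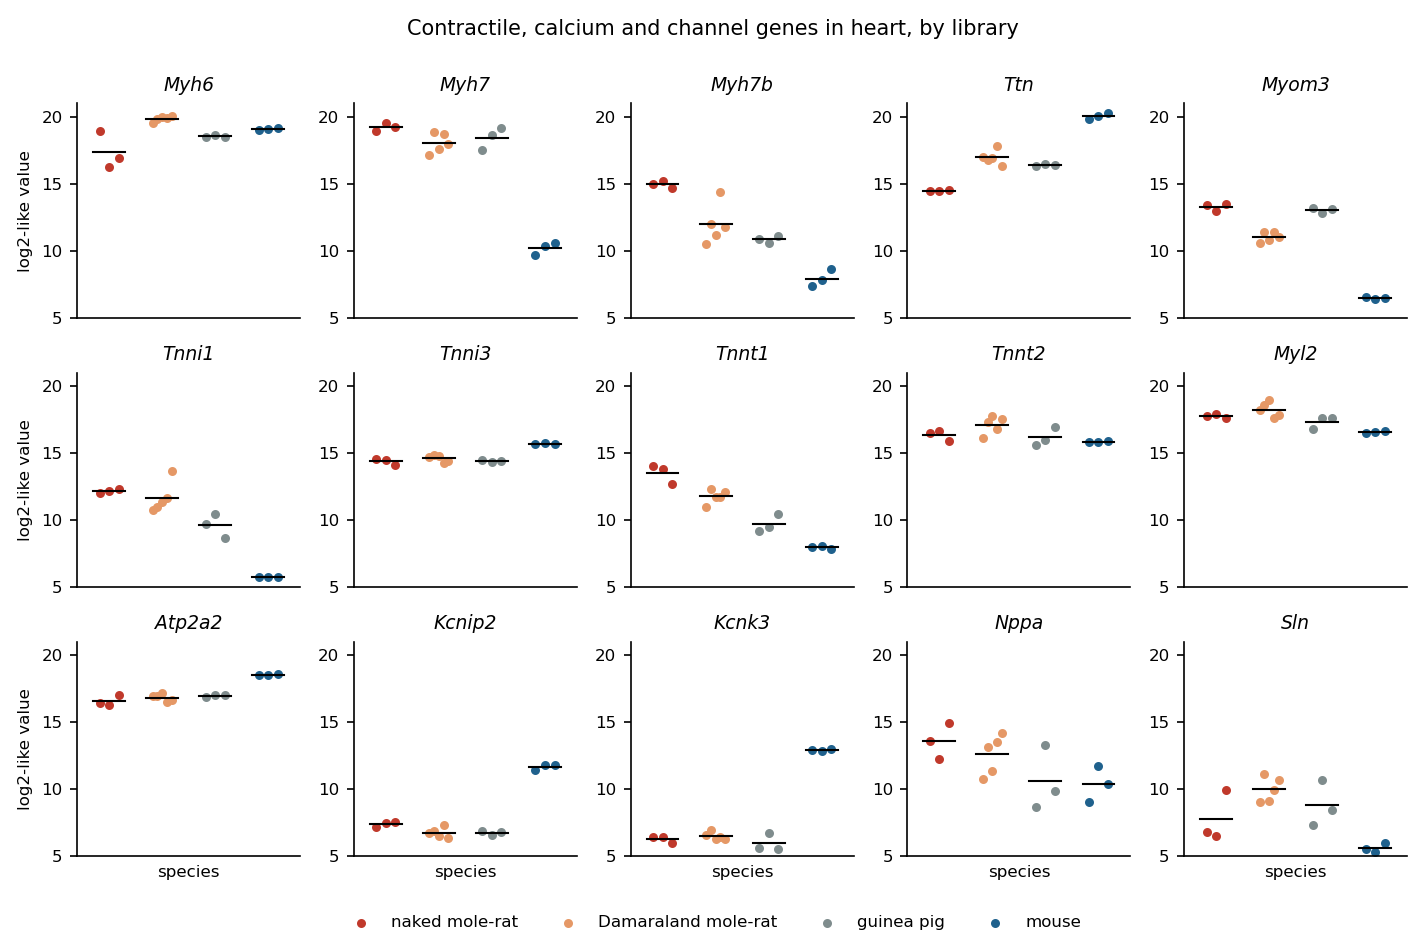
Log2-like values of 15 genes of contraction, calcium cycling and the action potential are shown by library, with a line at each species mean. The mouse stands apart from the other species at Myh7, Tnni1, Kcnip2 and Kcnk3, and the naked mole-rat has the lowest Ttn values of all libraries shown.

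Calcium handling genes moved both ways, with 4 members higher and 9 lower of 28 and a median of -0.14. Atp2a2, the pump that returns calcium to the sarcoplasmic reticulum, stood at 16.44, 16.31 and 17.04 in naked mole-rat and at 18.51, 18.5 and 18.63 in mouse. It was lower in every naked mole-rat library, by a difference of -1.95 ± 0.24 (adjusted p = 1.91e-06), and was not called under quantile normalisation. Its inhibitor phospholamban (Pln) had a difference of -0.92 ± 0.26, short of the size threshold, and the release channel Ryr2 one of 0.92 ± 0.24. Srl, which encodes the calcium-binding sarcalumenin, was lower by a difference of -3.25 ± 0.29 (adjusted p = 5.59e-08). Atp2b4, a calcium pump of the outer membrane, was higher by 2.47 ± 0.20 (adjusted p = 1.93e-08).

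Ion channels of the action potential were more often lower than higher in naked mole-rat, with 13 lower and 5 higher of 27 (48.1% and 18.5%) and a median of -1. In the adult mouse a fast potassium current, carried by channels of the Kcnd family with the subunit Kcnip2, ends the action potential early. Kcnip2 stood at 7.16, 7.52 and 7.53 in naked mole-rat and at 11.43, 11.78 and 11.78 in mouse, a difference of -4.26 ± 0.21 (adjusted p = 4.28e-11). The channel genes Kcnd2 and Kcnd3 differed by -4.16 and -2.59. Kcnk3, a background potassium channel, was at 6.42, 6.45 and 5.97 against 12.96, 12.83 and 13, the largest difference in the list (-6.65 ± 0.26, adjusted p = 2.55e-12). Damaraland mole-rat and guinea pig means were also low for Kcnip2 (6.78 and 6.77) and for Kcnk3 (6.53 and 5.98), so the mouse alone was high among the 4 species. Kcnq1, the slow delayed rectifier that shapes long action potentials, was higher in naked mole-rat by 1.86 ± 0.20 (adjusted p = 3.58e-07).

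Signals that tune the heartbeat came lower more often than higher. Of 26 adrenergic and muscarinic signalling genes, 12 were lower and 2 higher, with a median of -0.84. Adra1b, an alpha-1 adrenergic receptor, was near the floor in naked mole-rat at 5.78, 5.81 and 6.22 and stood at 10.13, 9.81 and 9.79 in mouse (-3.98 ± 0.23, adjusted p = 2.06e-10). Prkar2a, a regulatory subunit of protein kinase A, differed by -2.98 ± 0.19 (adjusted p = 1.11e-09). Rgs4, a brake on G-protein signalling, was higher by 2.71 ± 0.23 (adjusted p = 3.48e-08). The beta-1 receptor Adrb1, the main receptor for adrenaline in heart muscle, differed by -0.05 and was not called.

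The natriuretic peptide system, through which the heart lowers blood pressure, had 2 higher and 2 lower of 10. Nppa, the atrial peptide, ranged widely: 13.58, 12.24 and 14.98 in naked mole-rat and 9.02, 11.76 and 10.41 in mouse. Its difference of 3.20 ± 1.07 (adjusted p = 0.0147) was no longer called without naked mole-rat replicate 3 or without mouse replicate 1. Leaving out 1 library at a time gave 2.51 to 3.89. Naked mole-rat replicate 3 also had the highest values of Myl4, an atrial light chain (12.19 against 9.46 and 10.12), and of Sln, an atrial inhibitor of the calcium pump (9.95 against 6.8 and 6.55). Myl4 was not called without that library, with a difference of 3.82 ± 1.26 in the full fit. Sln, at 2.12 ± 0.83, lost its call without mouse replicate 1 or 2, in a fit of the 6 libraries alone and with robust variances. It also lost its call with no filter on low values and with voom under either kind of library size. Without naked mole-rat replicate 3 its mean fell below the filter and it was not tested. Which chamber each piece of heart came from is not stated in the labels, and its part in these values was not tested. Npr1, the receptor for these peptides, was higher by 1.39 ± 0.26 (adjusted p = 0.000163). Nppb was not analysed here.

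Of 18 genes of the intercalated disc, which couples neighbouring cells, 6 were higher and 3 lower. Ank3, an ankyrin that anchors sodium channels, and Tjp1, a junction scaffold, were higher by 2.07 ± 0.20 and 1.67 ± 0.18. Jup, which encodes plakoglobin of the desmosome, and the connexin gene Gjc1 differed by -2.10 ± 0.30 and -2.05 ± 0.19. Among 23 transcription factors of heart development, 3 were higher and 7 lower, with a median of -0.01. The core factors Nkx2-5, Tbx5 and Gata4 differed by -0.015, 0.03 and -0.72 and were not called. Nr2f2, a factor of atrial and vascular cells, was higher by 1.62 ± 0.27, and Tead1 and Mef2a, which act on muscle gene promoters, differed by -2.02 ± 0.18 and -1.94 ± 0.23.

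Genes of fuel use were lower in naked mole-rat as groups, with exceptions in fructose and glycogen. Among 31 genes of glycolysis and pyruvate handling 15 were lower and 2 higher, with a median of -0.89. Hk2, the insulin-responsive hexokinase that traps glucose in the cell, stood at 7.08, 7.34 and 7.78 in naked mole-rat and at 12.84, 12.95 and 13.18 in mouse. The difference was -5.59 ± 0.23 (adjusted p = 3.46e-12), with 81.2 times the scaled reads in mouse. The guinea pig mean was low as well (8.86), and the Damaraland mole-rat mean (12.12) was close to that of the mouse. The glucose transporters Slc2a4 and Slc2a1 differed by -0.33 ± 0.21 and 0.49 ± 0.25 and were not called.

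The pyruvate dehydrogenase kinases, which hold carbohydrate back from the mitochondria, differed in opposite directions. Pdk4, which rises with fasting and fat use, was at 10.54, 10.35 and 10.11 in naked mole-rat and at 14.31, 14.21 and 14.25 in mouse (-3.92 ± 0.55, adjusted p = 9.05e-06). Pdk1 was at 7.88, 7.38 and 6.91 against 11.72, 11.76 and 12.2 (-4.51 ± 0.30, adjusted p = 1.37e-09). Neither gene overlapped between species. Pdk3 was higher in naked mole-rat by 2.12 ± 0.20 (adjusted p = 1.01e-07). In liver Pdk4 went the other way, with a difference of 5.22 (adjusted p = 5.8e-08). Feeding state before tissue collection is not given in the labels, and its part was not tested.

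Slc2a5, the fructose transporter, was the strongest member of the fructose list, in which 3 of 7 genes were higher and 1 was lower. It stood at 10.54, 10.56 and 9.87 in naked mole-rat and at 7.6, 6.52 and 5.81 in mouse. Every naked mole-rat library was above every mouse library, by 3.68 ± 0.33 (adjusted p = 5.2e-08). The Damaraland mole-rat mean was 10.31 and the guinea pig mean 6.13. Fbp2, the muscle form of fructose bisphosphatase, was higher by 2.39 ± 0.19 (adjusted p = 1.55e-08). Sord, which makes fructose from sorbitol, was lower by a difference of -2.97 ± 0.23 (adjusted p = 8.14e-09), and Khk, which starts fructose breakdown, differed by 0.07 ± 0.29.

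Glycogen phosphorylase, which releases glucose from glycogen, differed in opposite directions at its liver and muscle isoforms. Pygl, the liver isoform, stood at 12.85, 12.49 and 12.9 in naked mole-rat heart and at 7.18, 7.65 and 7.92 in mouse heart, a difference of 5.17 ± 0.46 (adjusted p = 4.89e-08). Pygm, the muscle isoform, stood at 11.51, 11.61 and 11.82 against 14.42, 14.45 and 14.63, a difference of -2.85 ± 0.21 (adjusted p = 4.05e-09). The species did not overlap for either gene. Damaraland mole-rat hearts had 14.89 for Pygl and 14.32 for Pygm, and guinea pig hearts had 7.41 and 13.46. Over the 22 genes of glycogen metabolism 5 were higher and 5 lower.

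Markers of liver were also higher in naked mole-rat heart, with Alb, which encodes serum albumin, one of the genes with the largest differences (5.30 ± 0.57, adjusted p = 4.8e-07). Of 9 listed liver markers 7 were tested (Alb, Apoa1, Cps1, Fga, Fgb, Tat and Ttr), and 6 of these were at least 1 above the floor in both species. Tat passed the filter on low values only through the naked mole-rat libraries, so its direction was set by that filter. All 7 were called higher, with a median of 3.16. Their summed scaled reads were 33460, 12120 and 30790 in the naked mole-rat heart libraries and 376.3, 1296 and 425.1 in the mouse heart libraries. As a percentage of their share of reads in naked mole-rat liver, these 7 genes stood in naked mole-rat heart at 0.999 (Ttr) to 1.53 (Cps1), with Alb at 1.09. On the same measure Pygl stood at 69.5, Slc2a5 at 336 and Pla1a at 394. Dio1, which activates thyroid hormone, stood at 2.82 on that measure, and its heart difference was 1.51 ± 0.16. Pla1a, a secreted phospholipase, was at 13.84, 13.64 and 14.1 against 7.23, 7.38 and 7.32 in mouse (6.55 ± 0.27, adjusted p = 4.57e-12). The part of liver material in the heart values was not tested.

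Fatty acid uptake and oxidation genes were lower in 17 and higher in 1 of 31 (54.8% lower), with a median of -1.19. Decr1, which completes the oxidation of unsaturated fatty acids, stood at 8.73, 8.8 and 8.79 in naked mole-rat and at 12.71, 12.64 and 12.81 in mouse (-3.95 ± 0.19, adjusted p = 2.21e-11). Ucp3, a mitochondrial carrier linked to fat use, was near the floor at 5.57, 5.62 and 5.8 against 10.73, 10.59 and 10.76 in mouse (-5.03 ± 0.13, adjusted p = 2.93e-14). Lpl, which frees fatty acids from blood lipids, and Slc25a20, which carries them into mitochondria, differed by -3.68 and -3.13. The gate enzymes Cpt1b and Cpt1a differed by -0.65 ± 0.21 and -0.38 ± 0.34 and were not called. Against guinea pig the naked mole-rat was called lower at 5 and higher at 4 of these genes (15.8% and 17.3% of all genes), and the mouse was called higher at 23 and lower at none (17.6% and 13.9% of all genes). These comparisons share their libraries. Ucp3 was near the floor in Damaraland mole-rat and guinea pig too, at 5.37 and 5.56. Bdh1, which handles ketone bodies, was higher by 1.68 ± 0.39 on average, but mouse values ran from 8.61 through 10 to 11.01, and without mouse replicate 1 the difference was 1.05.

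The creatine and adenylate genes that buffer the energy supply were lower in 13 and higher in none of 21, with a median of -1.20. Ckm, the muscle creatine kinase, stood at 14.23, 14.13 and 13.75 in naked mole-rat and at 15.34, 15.41 and 15.46 in mouse (-1.36 ± 0.21, adjusted p = 2.89e-05). Slc25a5, a mitochondrial exchanger of adenine nucleotides with close paralogs, differed by -3.04 ± 0.17 (adjusted p = 1.94e-10). Ak4, a mitochondrial adenylate kinase, differed by -2.36 ± 0.21 in heart (adjusted p = 4.5e-08) and by 1.75 in liver (adjusted p = 7.8e-07). Myoglobin (Mb), the oxygen store of muscle, was at 16.98, 16.9 and 14.98 in naked mole-rat against 17.08, 17.14 and 17.28, with replicate 3 low, and was not called (-0.88 ± 0.40, adjusted p = 0.0628).

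On the deposited scale, the nuclear genes of the respiratory chain and the creatine list had the highest shares of lower genes among the 25 lists, as the plot of calls by gene list shows. This order did not hold under every scaling. Complex I, the entry point for NADH, had 21 lower and no higher genes of 33 (63.6%), with a median of -1.23. Complexes II to V had 26 lower and no higher of 43 (60.5%), with a median of -1.34. The lower count for complex I was 14 with voom and totals without mitochondrially encoded genes, and that for complexes II to V was 17 on quantile normalisation, while the ion channel list kept 13 or 14 lower of 27 under each scaling. In liver the same lists had 4 lower and 3 higher of 33, and 11 lower and 2 higher of 42, with medians of -0.30 and -0.53. Against guinea pig heart, the naked mole-rat was called lower at 6 and higher at 3 complex I genes (15.8% and 17.3% of all genes). The mouse was called higher at 14 and lower at 0 (17.6% and 13.9% of all genes). For complexes II to V these counts were 8 and 3 for naked mole-rat, and 15 and 1 for mouse. These comparisons share their libraries. Ndufb6, an accessory subunit of complex I, stood at 9.08, 8.96 and 9.41 in naked mole-rat heart and at 11.21, 11.4 and 11.31 in mouse heart (-2.16 ± 0.29, adjusted p = 6.75e-06). Atp5e, the epsilon subunit of ATP synthase, stood at 7.48, 6.93 and 8.38 against 12.73, 12.82 and 12.68 (-5.14 ± 0.42, adjusted p = 1.7e-08). The species did not overlap for either gene.

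Genes encoded in the mitochondrial DNA took similar shares of reads, 22.65% to 26.88% in naked mole-rat heart and 22.43% to 25.59% in mouse heart. Of 12 such genes 4 were lower and none higher, with a median of -0.95, and the lower count was 1 to 5 when single libraries were left out. The largest difference was at mt-Nd1, a core subunit of complex I, with 15.3, 14.43 and 15.35 against 18.29, 18.32 and 18.63 (-3.39 ± 0.43, adjusted p = 3.35e-06). The call at mt-Atp8 was lost on leaving out any one of 5 libraries, all but naked mole-rat replicate 3. Damaraland mole-rat libraries had 0.005649% to 0.02792% of reads in these genes, so they give no side values here.

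**Figure D3:**
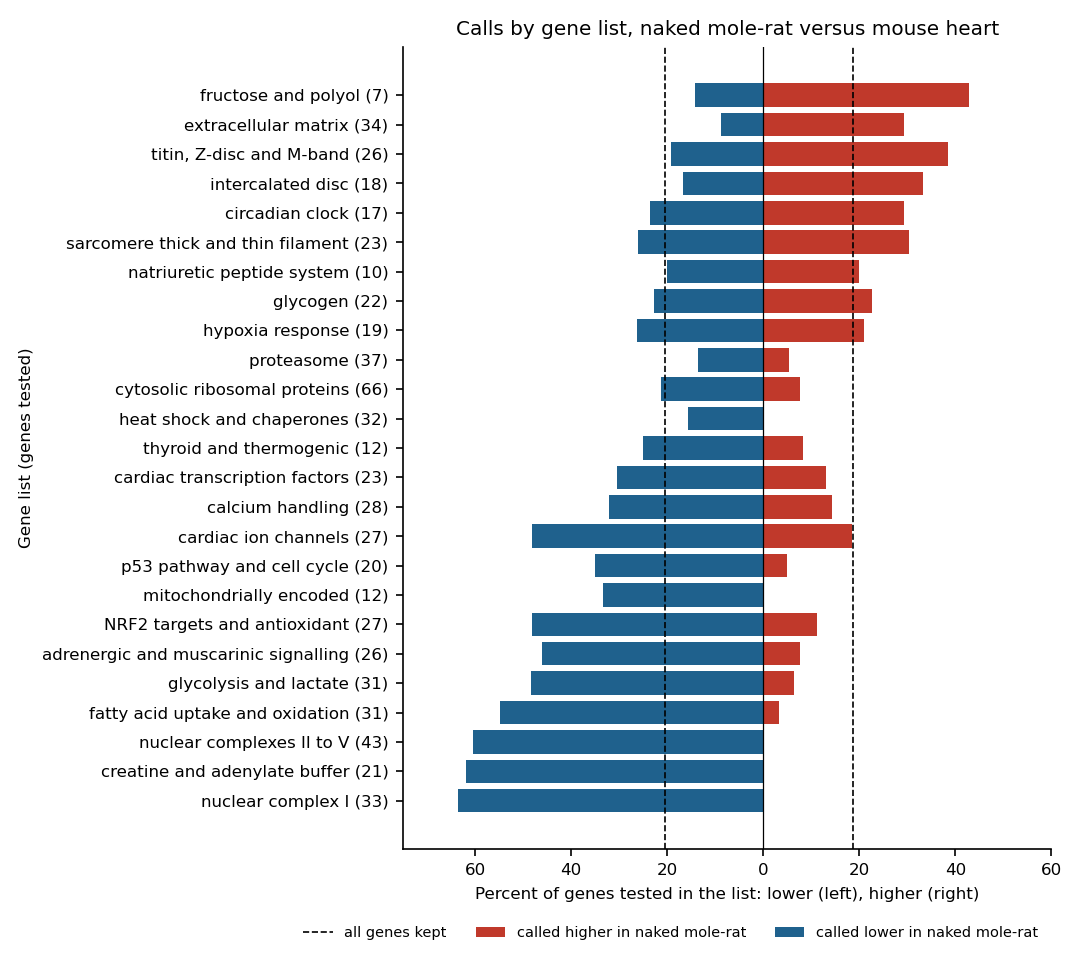
For each of 25 gene lists, bars give the percentage of its tested genes called on the deposited scale lower (left) and higher (right) in naked mole-rat heart, with dashed lines at the shares over all genes kept (20.5% lower, 18.7% higher). The nuclear respiratory chain, creatine and fatty acid lists reach furthest to the left, at 63.6% for complex I.

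**Figure D4:**
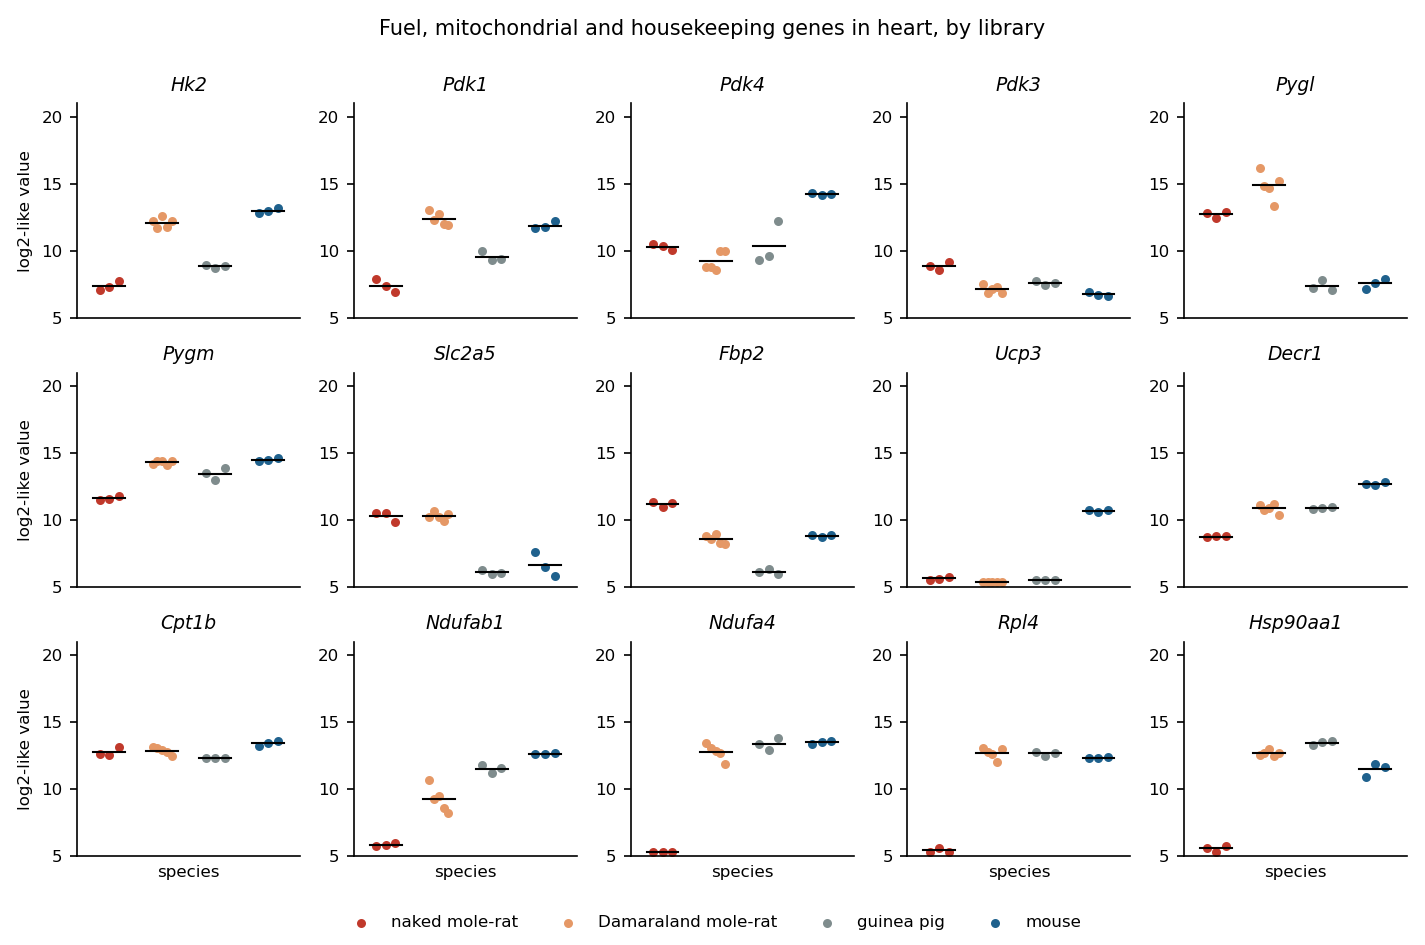
Log2-like values of 15 genes of fuel use, mitochondria and general cell upkeep are shown by library, with a line at each species mean. Ndufa4, Rpl4 and Hsp90aa1 sit at or near the floor in naked mole-rat libraries and above 10 in every library of the other species.

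Some genes that every cell uses were listed at or near 0 in naked mole-rat heart. Ndufa4, a subunit of the respiratory chain, had 0 reads in all 3 naked mole-rat heart libraries and 0 in the naked mole-rat liver libraries, and stood at 13.37, 13.52 and 13.6 in mouse heart. Against a floor of 3 reads over the naked mole-rat group it was at least 11400-fold lower. Rpl4 and Rpl8, proteins of the large ribosomal subunit, stood at 5.36, 5.62 and 5.36 and at 5.57, 5.55 and 5.36 in naked mole-rat against means of 12.36 and 12.18 in mouse. Hsp90aa1, an abundant chaperone, was at 5.66, 5.36 and 5.8 against 10.95, 11.88 and 11.65. The signalling adaptor gene Ywhae had 0 reads in every naked mole-rat heart library and a mean of 12.64 in mouse. How transcripts of each species were assigned to the rows of the table is not stated in the sources used here, so such values say only that the row is listed at 0.

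Of the kept genes, 31 had 0 reads in all naked mole-rat heart libraries and 17 in all mouse heart libraries. More widely, 469 kept genes had a naked mole-rat mean less than 1 above the floor. They passed the filter through the mouse libraries, so only a lower call was possible. Of these, 334 were called lower. Of the 243 among them that reached that level in mouse liver, 149 (61.3%) were below it in naked mole-rat liver as well, against 3.86% of all genes kept that reached it in mouse liver. In the other direction, 663 kept genes had a mouse mean less than 1 above the floor, and 504 of them were called higher. Of the 504, 408 reached that level in naked mole-rat liver. Of these, 197 (48.3%) were below it in mouse liver, against 6.04% of all genes kept that reached it in naked mole-rat liver. The shares over all genes kept are not matched for level in heart. Over the 9527 genes at least 1 above the floor in both species, 3348 were called (35.1%), 1493 higher and 1855 lower.

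The 4 genes of this kind with the largest negative differences were Ccnb1ip1, Ndufa4, Lrtm1 and Golga4. Ccnb1ip1, known from meiosis, stood at 5.57, 5.55 and 5.36 in naked mole-rat and at 15.51, 15.61 and 14.91 in mouse, and was near the floor in guinea pig and Damaraland mole-rat too (5.98 and 5.73). Lrtm1 had 0 reads in naked mole-rat heart and a mouse mean of 13.48, with 5.45 and 5.72 in guinea pig and Damaraland mole-rat. Golga4, a Golgi tether, was near the floor in naked mole-rat alone, with means of 13.03 in mouse, 11.76 in guinea pig and 12.25 in Damaraland mole-rat. The 4 with the largest positive differences were Cplx1 (6.62), Tnni1 (6.44), Glp2r (6.18) and Gpr158 (6.01). Cplx1, which encodes a regulator of vesicle release at synapses, stood at 12.79, 12.44 and 10.93 against 5.36, 5.56 and 5.36. Glp2r, the receptor for a gut peptide hormone, stood at 11.54, 11.29 and 12 against 5.36, 5.56 and 5.36, with guinea pig and Damaraland mole-rat means of 5.61 and 5.58.

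Among genes detected in both species, the remaining large negative differences fell on genes of varied function. Creb5, a transcription factor, stood at 7.25, 7.59 and 7.26 in naked mole-rat and at 14.38, 14.82 and 13.82 in mouse (-6.98 ± 0.24, adjusted p = 4.11e-13). Fndc5, which encodes the precursor of the muscle hormone irisin, was at 6.32, 6.26 and 6.62 against 12.9, 12.88 and 13.1 (-6.56 ± 0.17, adjusted p = 3.57e-14). Both were low in guinea pig and Damaraland mole-rat as well, with means of 6.23 to 7.19. The cytolinker Macf1 (-5.78), the nicotinic receptor modulator Lynx1 (-5.64), the ubiquitin ligase Nedd4 (-5.59) and the polymerase-associated Polr2m (-5.53) completed the set. Macf1, Lynx1 and Polr2m had guinea pig means of 13.33, 12.85 and 10.71, nearer to the mouse. Dkk3, a secreted protein of the Dickkopf family, was on the positive side at 12.16, 12.21 and 12.49 against 6.48, 6.49 and 6.39 (5.83 ± 0.27, adjusted p = 1.84e-11), with means of 13.40 in guinea pig and 13.34 in Damaraland mole-rat.

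Genes of protein synthesis and turnover were called higher in few cases. Of 66 cytosolic ribosomal protein genes, 5 were higher (7.58%) and 14 lower (21.2%), with a median of -0.12. Rpl5 and Rpl12 were higher by 3.19 ± 0.20 and 2.47 ± 0.25, opposite to Rpl4 and Rpl8. Ribosomal protein genes have many processed copies in mammalian genomes, and reads may be shared with them, which was not tested. In liver 35 of the 66 were higher and 3 lower. Of 37 proteasome genes 2 were higher and 5 lower. Those lower were led by Psmb10 (-3.06 ± 0.17) and Psme1 (-2.15 ± 0.17), a catalytic subunit and an activator of the immunoproteasome. Psmc5, a subunit of the proteasome base, was higher by 1.29 ± 0.20, and Psma7, at 1.04 ± 0.21, lost its call without naked mole-rat replicate 1. Of 32 chaperone genes 5 were lower and none higher, and the one after Hsp90aa1 was Dnajb4 (-1.57 ± 0.22).

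Defences against oxidants were lower in 13 and higher in 3 of 27 genes (48.1% lower), with a median of -0.78, and the median in liver was -0.78 too. Gpx4, which reduces lipid peroxides, stood at 8.32, 7.79 and 9.13 in naked mole-rat heart and at 13.05, 13 and 13.07 in mouse heart (-4.63 ± 0.27, adjusted p = 2.93e-10). Prdx5, a mitochondrial peroxiredoxin, was at 8.13, 8.27 and 8.49 against 12.41, 12.71 and 12.64 (-4.29 ± 0.22, adjusted p = 4.84e-11). Gsr, which regenerates glutathione, was higher by 1.45 ± 0.17 (adjusted p = 9.6e-07). Hmox1, which breaks down haem, was at 8.91, 8.89 and 7.72 against 7.28, 7.56 and 7.17 and was not called without naked mole-rat replicate 1 or 2. The NRF2 gene itself, Nfe2l2, differed by 0.04.

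Genes of the hypoxia response moved both ways, 4 higher and 5 lower of 19, with a median of 0.07. Hif1a, the oxygen-regulated factor, differed by -0.43 ± 0.25 and was not called. Pfkfb4, which raises the signal for glycolysis, and P4ha2, which modifies collagen, were higher by 1.78 ± 0.28 and 1.71 ± 0.20. Bnip3 and Higd1a, both mitochondrial proteins, differed by -2.46 ± 0.24 and -2.44 ± 0.19. Of 20 genes of the p53 pathway and cell cycle 7 were lower and 1 higher. Ccng1, a p53 target, stood at 8.77, 8.58 and 9.52 against 14.35, 14.31 and 14.35 (-5.38 ± 0.27, adjusted p = 3.6e-11), while Trp53 itself differed by -0.17. Mcm2, a DNA replication helicase subunit, was the one higher gene (1.97 ± 0.19). Of 17 clock genes 5 were higher, led by Per2 (1.72 ± 0.36) and Cry1 (1.43 ± 0.18), and 4 were lower, led by Rora (-2.65 ± 0.20) and Bhlhe41 (-2.05 ± 0.23). The hour of tissue collection is not given in the labels. Of 12 thyroid and thermogenic genes, 9 of them at least 1 above the floor in both species, 3 were lower and 1, Dio1, was higher. Dio1, at 5.57 to 5.76 in mouse, passed the filter on low values only through the naked mole-rat libraries. Ucp3, counted as lower, passed it only through the mouse libraries. The lower genes also included Me1 (-2.76 ± 0.21), which makes NADPH for fat synthesis.

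Matrix genes were more often higher than lower. Of 34 genes 10 were higher (29.4%) and 3 lower, with a median of 0.57, and the higher count was 8 to 12 when single libraries were left out and up to 16 under other scalings. Postn, a matrix protein of activated fibroblasts, stood at 10.28, 11.06 and 11.9 in naked mole-rat and at 8.67, 9.46 and 8.55 in mouse (2.18 ± 0.36, adjusted p = 5.13e-05). Col14a1, a collagen that organises fibrils, was higher by 2.00 ± 0.34 in heart (adjusted p = 7.81e-05) and differed by -2.36 in liver (adjusted p = 2.8e-06). Col3a1, a main fibrillar collagen, had a difference of 1.44 ± 0.55 that was lost without naked mole-rat replicate 2 or 3 or without mouse replicate 1 or 3. Col5a1 and Lum, a fibril collagen and a proteoglycan, were lower by differences of -1.75 ± 0.42 and -1.39 ± 0.38.

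These were pieces of whole tissue, so fewer cells of a type and less RNA per cell cannot be told apart. Fibroblast markers were higher in 6 and lower in 2 of 10, with summed scaled reads of 29990 to 40470 in naked mole-rat and 15050 to 18700 in mouse, and the higher count fell to 3 when single libraries were left out. Their part in the matrix values was not tested. Endothelial markers were 1 higher and 1 lower of 13, with overlapping sums of 21600 to 27290 and 22240 to 27620, and the higher one was Vwf, which carries a clotting factor (2.47 ± 0.31). Smooth muscle and pericyte markers were 5 higher and 1 lower of 12, with Myh11, smooth muscle myosin, higher by 2.26 ± 0.26 and Rgs5 lower by a difference of -2.27 ± 0.33. Their summed scaled reads overlapped, at 16010 to 20380 and 17380 to 25560.

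Leukocyte markers were lower in 6 and higher in none of 8, with sums of 1129 to 1997 against 2594 to 3422. Cd163, a macrophage receptor, differed by -1.59 ± 0.36 in heart. Both tested blood markers were lower, with Alas2, which starts haem synthesis, at a difference of -2.37 ± 0.66, and with sums of 64.27 to 111.1 against 624.8 to 1747. The part of blood and leukocytes in the other values was not tested. Some markers of skeletal muscle, Schwann cells and mesothelium passed the filter on low values only through the naked mole-rat libraries, so no count of these lists is given. Myh4 and Myh1, fast skeletal myosins, stood at 7.44 to 7.98 and 7.38 to 8.81 in naked mole-rat, against mouse means of 5.73 and 5.97, near the floor. Ckm, in the same skeletal muscle list, was lower by a difference of -1.36. Summed scaled reads of that list, Ckm included, were 21810 to 29650 in naked mole-rat and 45070 to 53890 in mouse. S100b, a marker of Schwann cells, averaged 7.35 against 5.88, and Krt8, a mesothelial marker, 7.45 against 6.14. Msln, another mesothelial marker, which passed in both species, was higher by 1.75 ± 0.46 (adjusted p = 0.00282). Neither of 2 adipocyte markers was called. The heart muscle marker list had 4 higher and 3 lower of 13, of which 11 were at least 1 above the floor in both species. Sln, counted as higher, passed the filter only through the naked mole-rat libraries. Sums of this list were 763400 to 879400 in naked mole-rat and 1607000 to 1968000 in mouse, and Ttn alone had means of 22890 and 1104000 scaled reads.

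The heart differences were set beside those of liver in the same species, which carry their own normalisation and share 2 naked mole-rats and 1 mouse with the heart set. Of 10664 genes tested in liver 4554 were called (42.7%). Of 9982 genes tested in both tissues, 3826 were called in heart and 4103 in liver, and 1871 were called the same way, 860 higher and 1011 lower. That is 48.9% of the heart calls and 45.6% of the liver calls. Opposite calls were made at 247 genes, of which 101 were higher in heart and 146 lower. Gpr158, Creb5, Macf1, Nedd4 and Ccnb1ip1 were among those shifted the same way, with liver differences of 6.22, -7.03, -6.29, -5.93 and -11.54. Hk2, Lynx1 and Decr1 differed in liver by -0.34, 0.04 and 0.00 and were not called there.

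**Figure D5:**
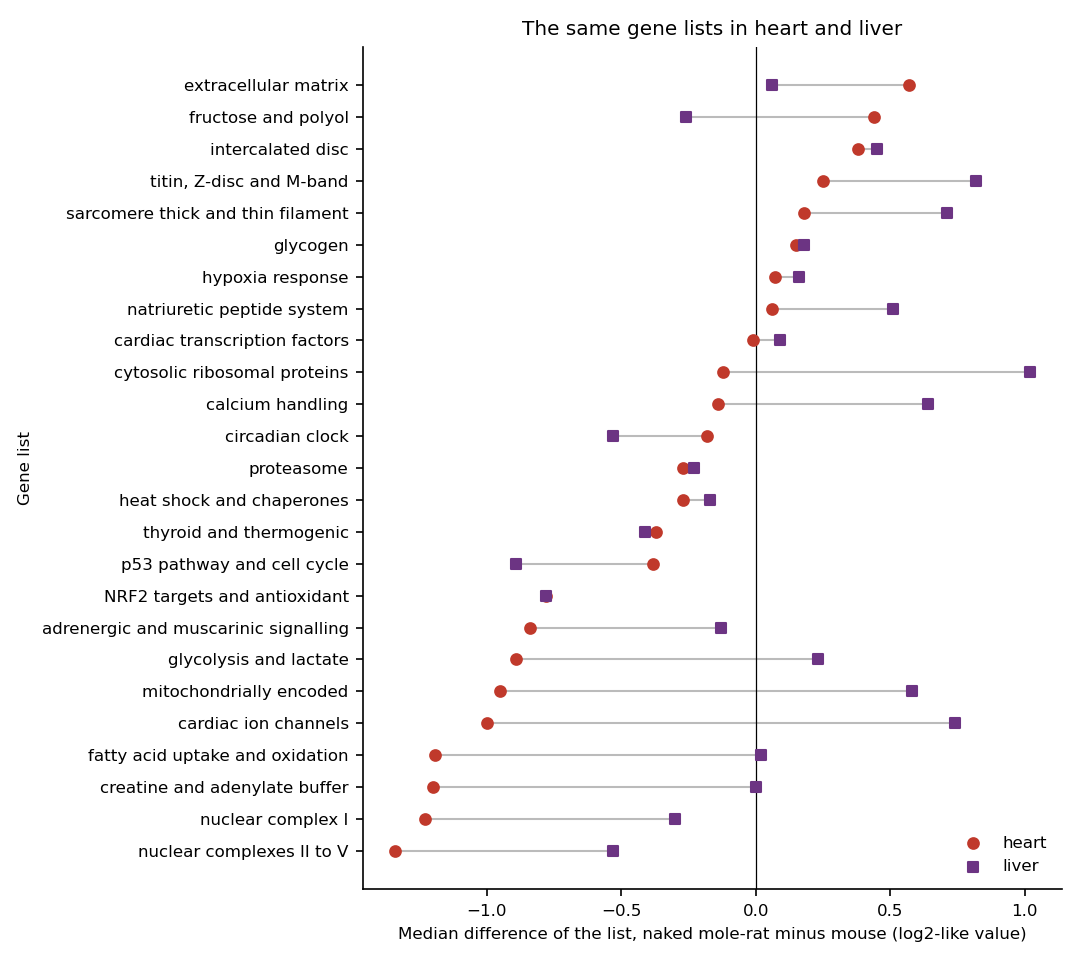
For each of 25 gene lists, the median difference between naked mole-rat and mouse is shown for heart (circle) and liver (square) on the log2-like scale. The fatty acid, creatine and ion channel lists lie at or below -1 in heart and at 0.00 or above in liver, while the oxidant defence list has -0.78 in both.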

How the data were processed

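Per the submitters' processing notes, reads were handled with cutadapt, Salmon and DESeq2, and the mouse build GRCm38 is named; how transcripts of the other species were assigned to mouse gene rows is not given in the sources used here. The deposited tables, 1 per tissue, hold the authors' variance-stabilised values (a scale close to log2) for 13928 mouse gene IDs, of which 13921 matched a symbol. Both tables hold 26 columns in all that belong to other series and were not used.

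All 14 heart libraries entered 1 limma 3.58.1 fit (R 4.3.3), with a coefficient per species, eBayes with a variance trend and p-values adjusted by Benjamini-Hochberg, and the naked mole-rat minus mouse contrast was read from it. Errors are its standard errors. Calls needed an adjusted p under 0.05 and a difference of at least 1. The liver table was fitted likewise. Inverting the transform gave whole reads for 100% of values (within 0.01), used for depth, ratios and voom as an alternative. Ratios and bounds at 0 reads cover counting error only. P-values and standard errors rest on the spread between animals of 1 sample each, pooled within the 4 species. The error beside a difference is therefore not the spread of naked mole-rat and mouse alone. For Tnni1, Damaraland mole-rat values ran from 10.72 to 13.66.

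Named genes were, for called genes detected in both species without overlap, the 8 largest differences each way; for called genes below the level of 1 above the floor in 1 species, the 4 largest each way; up to 2 called members each way of 36 lists; and a panel of 32 genes. Adrb1, Gata4, Kcnd2, Kcnd3, Lpl, Nfe2l2, Nkx2-5, Slc25a20, Tbx5, Trp53 and Ywhae fall outside that rule and were chosen after their values were seen. Members and lists were chosen with earlier results of these data known. In simulated data for this contrast (11058 genes), only genes with a mean of at least 100 scaled reads were changed. Every gene had the same dispersion of 0.05, and unchanged genes had equal means in all species. There 95% of 4-fold and 29% of 2-fold changes were called, with 0 false calls. These shares do not cover rare genes or the unequal real spread, a median SD of 0.255 in naked mole-rat and 0.111 in mouse. Results for some named genes are not reported here.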

Additional observations from a re-analysis of the deposited data

Results flagged for a closer look

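Several genes were called one way in heart and the other way in liver, and the difference between the tissues was not tested. Pdk4, the fasting-responsive pyruvate dehydrogenase kinase, differed by -3.92 in heart and by 5.22 in liver. Myl1, a skeletal muscle light chain, differed by -2.73 in heart and by 1.36 in liver. Ak4, a mitochondrial adenylate kinase, gave -2.36 and 1.75. Corin, the protease that activates the atrial peptide, gave -1.30 in heart and 5.49 in liver. Macrophage-derived complement C1qb gave -1.75 and 1.22. The matrix gene Col14a1 was higher in heart by 2.00 and gave -2.36 in liver, and the deiodinase Dio1 was higher in heart by 1.51 and gave -1.15 in liver. Dio1 passed the heart filter only through the naked mole-rat libraries. Its share of reads in naked mole-rat heart was 2.82% of that in naked mole-rat liver.

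Of 49 named genes examined for a stray value among the 5 Damaraland mole-rat heart libraries, which give side values only, 5 had one library far from the others, where chance gives about 1 in 20. These values were 12.81 for Synm, 7.66 for Gpr158, 15.48 for Myl3, 16.59 for Actc1 and 15.37 for Pln. The Myl3, Actc1 and Pln values all came from Damaraland mole-rat replicate 4. The flags are therefore not independent, and the 1 in 20 is no measure for their number.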

How the results depend on the processing

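No alternative reversed a call. The count of 4186 became 7068 (3490 higher, 3578 lower) with no size threshold, 2187 (993 and 1194) when tested against a difference of 1, and 2656 (1115 higher) above the table median. It was 5354 with voom on size factors (2618 and 2736) and 5464 with voom on totals without mitochondrially encoded genes, with 3292 higher. Keeping genes with a mean of 100 or more scaled reads in both species, a filter chosen after seeing the data, left 2324 (958 and 1366). Leaving out 1 library at a time gave 4148 to 4221 calls, 1925 to 2079 higher and 2137 to 2260 lower. The same-way count with liver, 1871, became 3749 with no size threshold and 941 above the table median, and 1816 to 1896 without single libraries. With the replicate number as a block 4189 genes were called (1998 higher, 2191 lower) and all 142 named genes kept their side of the threshold; same-numbered libraries of the species correlated at -0.033, -0.02 and -0.016, so the numbers pair nothing. Tested against a difference of 1, 32 of 142 named genes lost their call, and in each other alternative 0 to 6 did. Naked mole-rat replicate 3 had the fewest reads, 4089633, and 12.91% of genes at 0, against 12.1% in mouse replicate 3 at 24690868 reads.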

Other observations

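Smaller sets of genes were listed at 0 reads in every mouse heart library and read in naked mole-rat heart. Against a floor of 3 reads over the mouse group, Noxa1, an activator of the superoxide-forming NADPH oxidase, was at least 1310-fold higher in naked mole-rat, with a mean of 975.8 scaled reads. Gucy2c, the intestinal receptor guanylyl cyclase, was at least 1280-fold higher and also read in guinea pig heart, at a mean of 718 scaled reads. Calcoco2, an autophagy receptor, was at least 915-fold higher and read in Damaraland mole-rat and guinea pig hearts at means of 298.8 and 1240 scaled reads. Among rows listed at 0 in naked mole-rat heart, Rps13 was at least 1520-fold lower and Ywhae at least 6280-fold lower. These genes were chosen after their values were seen, and how transcripts were assigned to rows is not stated in the sources used here.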
